A study of Homo sapiens with 6 samples.

Results

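The cytosolic ribosomal proteins were taken as the rows of the count table whose symbol is RPL or RPS followed by a number, with or without an A, X or L suffix, together with RPLP0, RPLP1, RPLP2 and RPSA. The rule found 85 of 37887 rows, of which 53 encode proteins of the large (60S) subunit or their paralogues and 32 those of the small (40S) subunit. RNA was sequenced from 3 control and 3 shIRF1 samples of BT-549, a human line established from a triple-negative breast carcinoma. Controls received 0.1% DMSO, and shIRF1 samples received 500 ng/ml doxycycline to switch on a short hairpin RNA against IRF1, a transcription factor of the interferon response. By their titles the controls carry a control shRNA, but the description of the series gives a single line with the inducible IRF1 hairpin. Under either reading doxycycline was given to shIRF1 samples alone, so its effects and those of the hairpin cannot be told apart, and a single hairpin sequence was used.

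Each ribosome carries a single copy of most of these proteins, and their genes are among the most strongly transcribed in dividing cells. Their mRNAs typically begin with a 5′ terminal oligopyrimidine (TOP) tract, a C followed by an unbroken run of C or T bases, through which the kinase mTOR and the RNA-binding protein LARP1 set how strongly they are translated. Several of the proteins also act away from the ribosome, among them RPL5 and RPL11, which bind the p53 regulator MDM2, and RPL13A, which joins the GAIT complex that silences mRNAs after exposure to interferon.

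To show what the members share at their starts, windows of 12 bases before and 18 bases from the start of transcription were read from RefSeq (build GRCh38.p14) for 68 of the 85 members. The members below were chosen to show called rises (RPS3A, RPLP0, RPS14, RPLP2, RPL26 and RPS13), the pair in which a library stood apart (RPS9 and RPS18), called falls (RPL35 and RPL36AL) and paralogue forms (RPL22L1, RPS27L and RPL26L1). Capitals mark the run of C or T that starts with a C at the first transcribed base.
RPS3A, chr4:151099616-151099645, plus strand: ctcccacttccgCCCTTTTggctctctgac
RPLP0, chr12:120201094-120201123, minus strand: cgggcgcgaggcCCTTCTCTCgccaggcgt
RPS14, chr5:150449722-150449751, minus strand: ccccctcccactCTCTCTTTCCggtgtgga
RPLP2, chr11:809955-809984, plus strand: cgtcggcgccttCCTTTTCCTCCCTgtcgc
RPL26, chr17:8383176-8383205, minus strand: cagcgtgtagttCTCTTCCCTTTTgcggcc
RPS13, chr11:17077650-17077679, minus strand: cactctcgctctCCTTTCgttgcctgatcg
RPS9, chr19:54200846-54200875, plus strand: gcgcttccgcgcCTCTTTCTCagtgaccgg
RPS18, chr6:33272063-33272092, plus strand: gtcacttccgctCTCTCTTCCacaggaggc
RPL35, chr9:124861940-124861969, minus strand: cccgcctacttcCTCTTTCCCTCggagcgg
RPL36AL, chr14:49620609-49620638, minus strand: tttcttccctttCCTgttaggcgagagctg
RPL22L1, chr3:170870178-170870207, minus strand: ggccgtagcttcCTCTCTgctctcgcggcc
RPS27L, chr15:63157460-63157489, minus strand: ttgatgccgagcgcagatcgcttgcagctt
RPL26L1, chr5:172958717-172958746, plus strand: cttccaggggtcggcgaacgaaacgcggag

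A TOP start, defined here as a C at the first transcribed base followed by at least 4 bases that are each C or T, stood in 47 of the 68 members with a window (69.1%), against 1404 of 27305 genes with such a window (5.14%). Among the sequences above, RPL36AL has a run of only 3 bases, and the shown starts of RPS27L and RPL26L1 begin with another base, whereas RPL22L1 has a TOP start. Every called rise shown has a TOP start, but RPS29 and RPL9, also among the largest rises, have none and are not shown. An interferon-regulatory-factor type motif, GAAA, then any 2 bases, then GAAA on either strand, was sought from 250 bases before to 50 bases after each start, a window that takes in the TOP tract. It was found in 4 of the 68 members (RPL29, RPS12, RPS16 and RPS9, 5.88%) and in 4.38% of all genes with a window. A match describes letters only and is not a binding site.

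The 6 libraries held between 55143808 and 160436234 counts, with shIRF1 replicate 2 the shallowest. Levels are given as CPM, the counts of a gene relative to the library total after scaling by the trimmed mean of M values (TMM). In order of replicate number here and throughout, IRF1 itself was at 45.3, 48.1 and 51.5 CPM in controls and at 13.8, 14.9 and 14.6 CPM in shIRF1 samples, 29.9% of the control mean. VIM and CD44, which BT-549 expresses as a mesenchymal-like line, were at 918 and 1548 CPM in controls, the epithelial keratins KRT18 and KRT8 at 6.34 and 1.52 CPM. All 4 of these markers fell in shIRF1 samples (edgeR's quasi-likelihood test, Benjamini-Hochberg adjusted p under 0.05), and their part in the results was not tested. Of the markers of other cell types, PTPRC was at 0.526 CPM in controls, PECAM1 had at most 20 counts in a library and CD3E at most 1.

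Transcripts of ribosomal proteins were moderately higher in shIRF1 samples across most of the family. Of 84 members tested, 49 rose, 4 fell and 31 did not pass the test (edgeR's quasi-likelihood test, adjusted p under 0.05 over 18851 genes). Among all genes tested, 24.1% rose and 26.4% fell, against 58.3% of members that rose. The median log2 fold change of the members was 0.16, a rise of 11.5%, and that of all genes was -0.0024. Most of the individual changes were small, and 48 of the 49 members that rose did so by less than 0.5 on the log2 scale. In total 69 members had a positive and 15 a negative log2 fold change. P-values measure the spread between these cultures, which may be technical, and in bulk RNA a share of all transcripts cannot be told apart from an amount per cell.

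Since ribosomal protein mRNAs are abundant, the members were also read against genes of high level, a comparison chosen after seeing the data. Of 2455 genes whose mean reached 100 CPM, 33.1% rose and 34.8% fell. At that level 73 members were present, of which 47 rose and 3 fell, with a median log2 fold change of 0.16. In 51 members all shIRF1 samples lay above all controls and in 3 all lay below, where 27.3% and 29.5% of all genes tested did so.

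**Figure D1:**
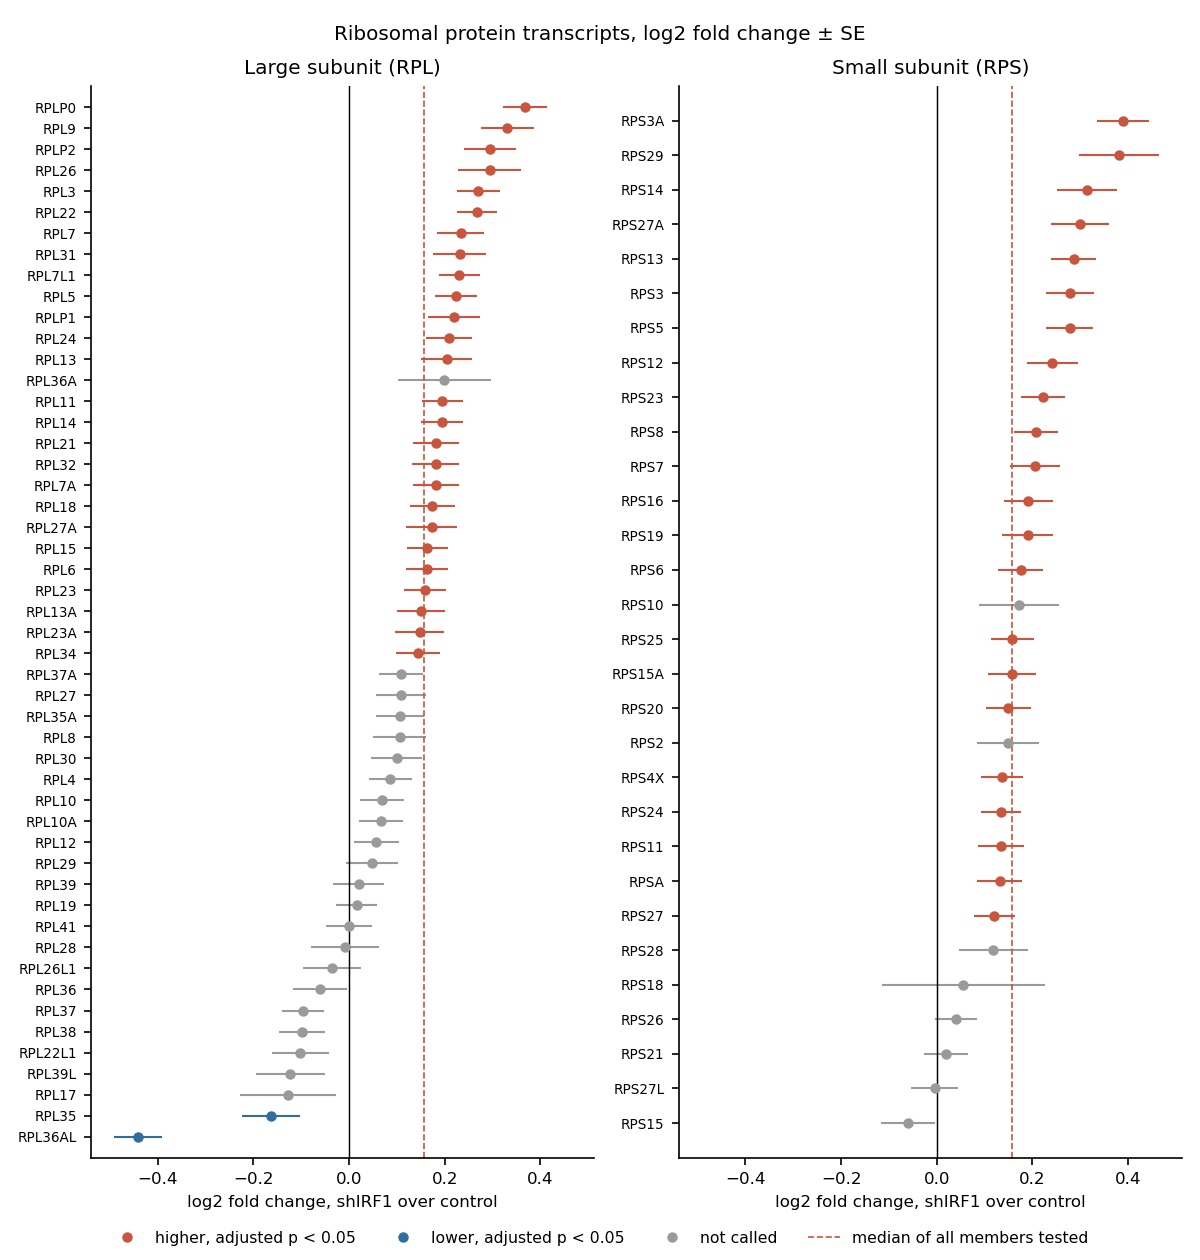
Log2 fold change (shIRF1 over control, horizontal axis) with its SE for 80 tested ribosomal protein genes, large subunit on the left and small subunit on the right, coloured by the edgeR call. Most points lie to the right of 0 around the median of 0.16, RPL36AL lies farthest to the left, and RPS9 (3.65) and RPL3L (-1.22), which fall outside the axis, are among those left out.

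The share of a library held by the members was 4.09%, 4.25% and 4.36% in control replicates 1 to 3. It was 4.94%, 4.90% and 4.72% in shIRF1 replicates 1 to 3, so that the groups did not overlap. The means were 4.23% ± 0.136 (SD, n = 3) and 4.86% ± 0.118 (SD, n = 3), a ratio of 1.15 (exact two-sided permutation test, p = 0.1, the smallest that 3 against 3 samples allow). Without RPS9 and RPS18, whose libraries stood apart, the shares were 4.15% and 4.76%. The controls were not uniform. Set against the mean of the controls, the median member lay at -0.06, 0.01 and 0.05 on the log2 scale in the controls and at 0.19, 0.17 and 0.11 in shIRF1 samples, and 6, 46 and 71 of 82 members were above that mean in control replicates 1, 2 and 3.

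**Figure D2:**
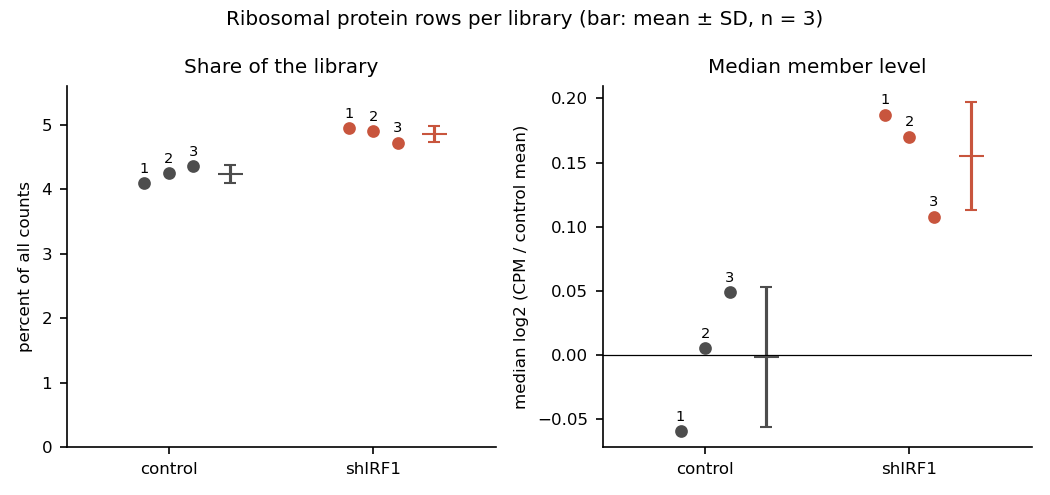
Share of all counts held by the ribosomal protein rows (left, percent) and median log2 ratio of 82 members to their control mean (right) in each library, with the mean ± SD of each group. Control replicate 1 was lowest in both panels, and all shIRF1 samples (4.72% to 4.94%) lay above all controls (4.09% to 4.36%).

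The rise was seen in both subunits. Of 52 large-subunit members tested, 26 rose (50%) and 4 fell (7.69%), with a median log2 fold change of 0.15. Of 32 small-subunit members, 23 rose (71.9%) and none fell, with a median of 0.17. Among all genes tested 24.1% rose and 26.4% fell. In the same fit 2 small-subunit members had a negative log2 fold change, and the difference between the subunits was not tested.

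Among the small-subunit proteins, RPS3A, which lies near the platform of the 40S subunit, was at 326, 337 and 344 CPM in controls and at 428, 483 and 409 CPM in shIRF1 samples. All shIRF1 samples were above all controls, and the log2 fold change was 0.39 ± 0.05 (SE; edgeR's quasi-likelihood test, adjusted p = 9.98e-06). RPS14, another platform protein and the one lost in 5q- syndrome, was at 706, 744 and 753 CPM in controls and 900, 1022 and 819 CPM in shIRF1 samples. Its groups did not overlap, with the highest value in shIRF1 replicate 2 (log2 fold change 0.31 ± 0.06, adjusted p = 0.000404, edgeR). RPS27A, made as a fusion with ubiquitin, rose by 0.30 ± 0.06 (SE) on the log2 scale, and RPS13, which forms a contact with the large subunit, by 0.29 ± 0.05. RPS29, a small zinc-binding protein of the 40S head, was at 105, 121 and 138 CPM in controls and 164, 173 and 138 CPM in shIRF1 samples. It rose by 0.38 ± 0.08 (adjusted p = 0.000965, edgeR), although its shIRF1 replicate 3 lay no higher than control replicate 3, and it was the only member called higher whose groups overlapped.

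Around the channel through which the mRNA passes, RPS3, which sits at its entry, rose by 0.28 ± 0.05 on the log2 scale and RPSA, which lies near its exit, by 0.13 ± 0.05. The rise of RPSA was not called without control replicate 1 or 2 or shIRF1 replicate 2 (adjusted p = 0.112, 0.0859 and 0.0851, edgeR). RPS2, RPS26 and RPS28 did not pass the test, at 0.15 ± 0.06, 0.04 ± 0.04 and 0.12 ± 0.07.

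The stalk of the large subunit recruits the translation GTPases. Its base RPLP0 was at 643, 650 and 697 CPM in controls and 886, 848 and 835 CPM in shIRF1 samples. No shIRF1 sample came within the control range, and the log2 fold change was 0.37 ± 0.05 (adjusted p = 2.96e-06, edgeR). The stalk tips also rose, RPLP2 by 0.29 ± 0.05 and RPLP1 by 0.22 ± 0.05 on the log2 scale. RPL12, which binds beside the stalk base, did not pass the test at 0.06 ± 0.05 (95% interval -0.03 to 0.15), and was called with scaling by library size only.

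RPL5 and RPL11, which with 5S rRNA form the particle that binds MDM2, both rose, by 0.22 ± 0.04 and 0.20 ± 0.04. RPL9, a protein near the base of the stalk, was at 526, 547 and 555 CPM in controls and 672, 750 and 626 CPM in shIRF1 samples, again without overlap, a log2 fold change of 0.33 ± 0.06 (adjusted p = 8.04e-05, edgeR).

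The proteins that line the tunnel by which the nascent chain leaves the ribosome, or surround its exit, had log2 fold changes on both sides of 0. Of 8 tested, RPL26 (0.29 ± 0.07), RPL22 (0.27 ± 0.04), RPL31 (0.23 ± 0.05) and RPL23A (0.15 ± 0.05) rose on the log2 scale. These were 50% of the list, beside 24.1% of all genes tested and 58.3% of members. The rise of RPL23A was not called without control replicate 1 or 2 (adjusted p = 0.0735 and 0.0693, edgeR) nor without shIRF1 replicate 1 or 3 (0.195 and 0.0559), and it was 0.086 on the log2 scale without shIRF1 replicate 1. RPL35, which forms part of the docking site for the signal recognition particle, was the only one called lower, with overlapping groups and in 9 of 17 alternatives, and RPL17, RPL19 and RPL39 were between -0.13 and 0.02 and did not pass the test.

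A list of 11 members with mutations known from Diamond-Blackfan anaemia was chosen by hand and may leave out others. Of these 11, 7 rose (63.6%, beside 24.1% of all genes tested and 58.3% of members) and none fell. Among those that rose was RPS19, the gene most often affected (0.19 ± 0.05 on the log2 scale). The 4 members counted as X-linked were all positive, from 0.02 for RPL39 to 0.20 for RPL36A. Of these, RPS4X alone passed the test (0.14 ± 0.04, called in 14 of 17 alternatives). RPL10 and RPL36A were each called in 3 of 17 alternatives, among them scaling by library size only.

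The most abundant members by mean CPM were RPL8, RPS2, RPS6, RPL10 and RPL7. Of these, RPS6, the substrate of S6 kinase, rose from 1428 ± 21.0 to 1613 ± 90.4 CPM (SD, n = 3), and RPL7 from 1206 ± 16.6 to 1418 ± 92.5 CPM. RPL8, RPS2 and RPL10 did not pass the test, with log2 fold changes of 0.11, 0.15 and 0.07. They were called higher in 6, 9 and 3 of 17 alternatives, among them scaling by library size only. The median level over the members was 497 CPM, against 9.29 CPM over all genes tested. Per kilobase of median transcript length RPL8 was again the highest, at 2106 CPM per kb, followed by RPS20 at 1647 CPM per kb and RPS2 at 1613 CPM per kb.

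Members with a TOP start and those without were described side by side. Of 47 tested members with a TOP start 31 rose (66.0%) and 1, RPL35, fell (2.13%), with a median log2 fold change of 0.17. Of 20 tested members with a window and no TOP start 9 rose (45%) and 1, RPL36AL, fell (5%), with a median of 0.11. The difference was not tested. Among all genes tested 24.1% rose and 26.4% fell, and among all members 58.3% rose. RPL9 and RPS29, among the largest rises, are in the group without a TOP start. The grouping rests on the annotated first base alone. At 1 annotated start of RPL19 that base is a T inside a run of C and T, which does not count as a TOP start. Members without a TOP start by this definition may therefore still carry a pyrimidine tract at or near their start.

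Against the family, 4 members were called lower, of which 3 are described. RPL36AL, a retrogene copy of the large-subunit gene RPL36A, was at 125, 126 and 131 CPM in controls and 102, 89.0 and 90.9 CPM in shIRF1 samples. All shIRF1 samples were below all controls, at 73.6% of the control mean (-0.44 ± 0.05, adjusted p = 9.65e-07, edgeR). The fall was called under all 17 alternative settings.

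The falls of RPL3L and RPL35 were less secure. RPL3L, the striated-muscle form of RPL3, had only 35, 38 and 58 counts in controls and 21, 8 and 19 in shIRF1 samples, or 0.284, 0.310 and 0.389 against 0.167, 0.144 and 0.115 CPM. The groups did not overlap in CPM (log2 fold change -1.22 ± 0.36, adjusted p = 0.0082, edgeR), and without control replicate 3 the adjusted p was 0.0515. RPL35 was at 421, 454 and 499 CPM in controls and 435, 374 and 418 CPM in shIRF1 samples, with overlap between the groups. Its fall of 0.16 ± 0.06 on the log2 scale (adjusted p = 0.0353, edgeR) was not called without control replicate 2 or 3 (adjusted p = 0.0919 and 0.233, edgeR) nor without shIRF1 replicate 2 or 3 (0.213 and 0.0519).

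A single library set the size of the largest rise. RPS9, a 40S protein that guards decoding accuracy, was at 4.88, 3.55 and 2.59 CPM in controls and at 7.16, 128 and 6.34 CPM in shIRF1 samples. These values came from 602, 435 and 386 counts in controls and 902, 7098 and 1044 in shIRF1 samples, so that the shallowest library held by far the most. With all libraries the log2 fold change was 3.65 ± 0.81 (adjusted p = 0.0011, edgeR). Without shIRF1 replicate 2 it was 0.89 and still called, and the groups do not overlap with or without that library. Even at 128 CPM, RPS9 lay below the median member, and in the other 5 libraries it was under 10 CPM, low enough that the value may depend on counting settings that are not given in the sources used here.

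RPS18, which contacts the large subunit from the 40S head, was the other member whose highest value exceeded its lowest within a group by more than 2 times. It was at 755, 961 and 901 CPM in controls and at 582, 1272 and 867 CPM in shIRF1 samples. Its shIRF1 replicates 1 and 2 lay on either side of the whole control range, differing 2.19-fold, and the log2 fold change of 0.06 ± 0.17 did not pass the test (95% interval -0.28 to 0.39). Without shIRF1 replicate 2 it was -0.26. Such a spread was rare, found in 0.183% of 9270 genes whose mean reached 10 CPM and in 2 of the 79 members at that level. Of the genes within 250 kb at that level, 1 of 6 around RPS9 (MBOAT7) and 1 of 13 around RPS18 (TAPBP) also exceeded 2-fold. Both were named after their values were seen. MBOAT7 did so among the controls (2.08-fold), while its shIRF1 samples differed 1.32-fold. TAPBP did so among shIRF1 samples (2.05-fold), with its lowest value, 7.95 CPM, in replicate 2, where RPS18 was highest.

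**Figure D3:**
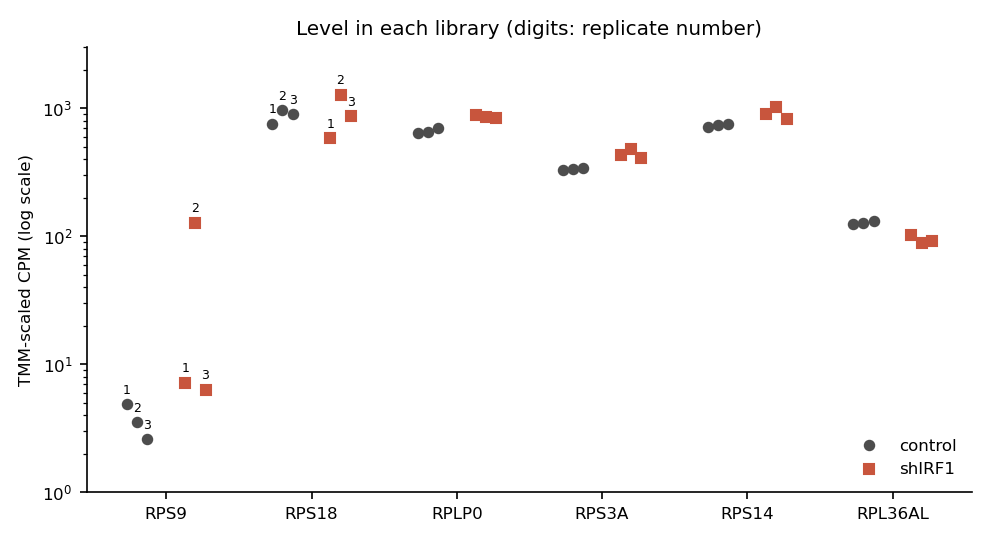
TMM-scaled CPM (log scale) of 6 ribosomal protein genes in each control (grey circles) and shIRF1 (red squares) library, with replicate numbers beside RPS9 and RPS18. RPS9 is at 128 CPM in shIRF1 replicate 2 and below 10 CPM elsewhere, RPS18 is spread around its controls, and RPLP0, RPS3A and RPS14 lie above and RPL36AL below their controls in every shIRF1 library.

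Of the paralogue forms, RPL7L1 alone rose (0.23 ± 0.04 on the log2 scale), RPL3L and RPL36AL fell, and RPL22L1, RPL26L1, RPL39L and RPS27L did not pass the test. RPL10L, the testis form of RPL10, had 0 counts in all 6 libraries and was not tested. When each form was expressed as a percent of the CPM of its pair, 6 of 7 forms held less of the pair in every shIRF1 sample than in any control. As single genes, 29.5% of all genes tested lay lower without overlap, but no such share was computed for other pairs. A form's share also falls where only its partner rises. RPL22L1 went from 19.3% ± 0.710 to 15.6% ± 0.401 (SD, n = 3) of its pair with RPL22, and RPL26L1 from 36.9% ± 2.23 to 31.8% ± 1.88 of its pair with RPL26. RPL39L went from 5.21% to 4.75%, RPS27L from 7.61% to 7.03%, RPL36AL from 96.6% to 94.7% and RPL3L from 0.0370% to 0.0133%. The last 2 shares are uncertain. RPL36A, the partner of RPL36AL, had a mean of 4.86 CPM, and its pseudogene rows held 40.2% of their summed counts. RPL3L had between 8 and 58 counts in a library. RPL7L1 held 21.3% of its pair in both groups. For the 6 pairs without overlap the exact two-sided permutation test gave p = 0.1 each, the smallest possible, and 0.117 after adjustment over 7 pairs, so none passed. Of the main forms, RPL22, RPL26, RPS27 (called in 13 of 17 alternatives), RPL7 and RPL3 rose, and RPL36A and RPL39 did not pass the test.

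**Figure D4:**
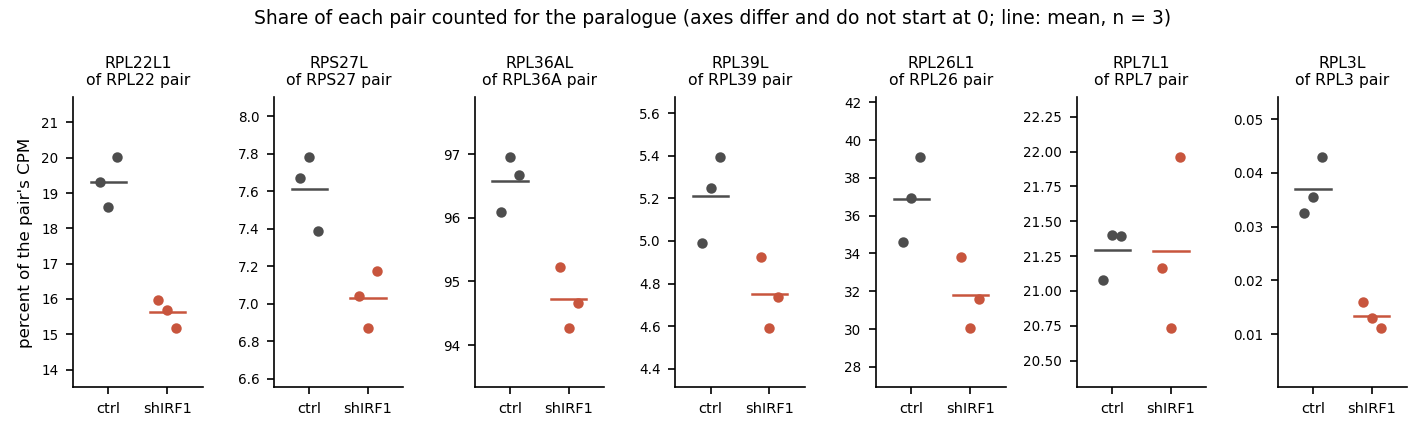
Percent of the summed CPM of each paralogue pair counted for the paralogue form, 1 panel per pair with its own axis, controls in grey and shIRF1 samples in red, lines at the mean of 3 samples. The shIRF1 points lie below all controls in 6 panels, and those of RPL7L1 overlap them.

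Some members were counted at levels far below the family. RPL36A, RPS10, RPL17 and RPL3L had means under 10 CPM, from 0.235 CPM for RPL3L to 7.38 CPM for RPL17. In GENCODE release 29 RPS10, RPL17 and RPL36A share exons with the readthrough genes RPS10-NUDT3, RPL17-C18orf32 and RPL36A-HNRNPH2, whose rows held 1 count in all. Counts in rows named as pseudogenes of the member made up 68.6% of the summed counts of RPS10 and its pseudogenes, 40.2% for RPL36A and 38.1% for RPL17, against a median of 1.07% over 77 members with such rows. How reads shared between a gene and its copies were assigned is not given in the sources used here, so the levels of these members are uncertain too.

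Beyond the symbols of the rule, FAU, which is made as a fusion of a ubiquitin-like protein with eS30, rose by 0.16 ± 0.05 on the log2 scale. RACK1, the signalling scaffold on the 40S head, was at 1254 ± 56.3 and 1286 ± 33.1 CPM (SD, n = 3) and did not pass the test. Of 18 other TOP transcripts tested, which encode translation factors and related proteins, 10 rose and 1 fell. These were 55.6% and 5.56%, beside 24.1% and 26.4% of all genes tested, and the median log2 fold change was 0.21. PABPC1, the poly(A)-binding protein, went from 2335 ± 21.5 to 3292 ± 110.2 CPM, a log2 fold change of 0.50 ± 0.05 that exceeded that of every member except RPS9. EIF2S3, a subunit of the initiation factor that delivers the initiator tRNA, and EIF4B, a helicase cofactor, each rose by 0.45 ± 0.04. EIF4A2 fell (-0.22 ± 0.05), named here as the single fall after its value was seen.

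Of 20 factors of 40S assembly 9 rose and 3 fell, or 45% and 15%, beside 24.1% and 26.4% of all genes tested. Their median was 0.13, with LTV1 at 0.55 ± 0.06, NOL6 at 0.39 ± 0.04 and BYSL at -0.43 ± 0.04 on the log2 scale. Of 30 factors of 60S assembly 12 rose and 7 fell, or 40% and 23.3%, the latter near the share of all genes. Their median was 0.04, with GNL3L at 0.59 ± 0.04, NOL9 at 0.55 ± 0.04 and RPF1 at -0.59 ± 0.05. Of 9 chaperones and escorts of ribosomal proteins 6 rose (66.7%) and none fell, with a median of 0.21. Those that rose include BCCIP, a chaperone of RPL23, at 0.28 ± 0.04, NAP1L1 at 0.26 ± 0.05 and AAMP at 0.24 ± 0.04.

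Of 15 RNA polymerase I genes, which make rRNA, 5 rose and 4 fell (33.3% and 26.7%, beside 24.1% and 26.4% of all genes tested; median -0.05), with POLR1B, the second-largest subunit, at 0.53 ± 0.04, POLR1A at 0.21 ± 0.04 and CD3EAP at -0.31 ± 0.06. Of 10 genes of the small nucleolar particles that modify rRNA, NOP58 alone rose (0.16 ± 0.05), FBL and DKC1 were at 0.10 ± 0.04 and 0.08 ± 0.04 without passing the test, and the median was -0.02. With scaling by library size only, 4 of the 10 rose.

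Of 14 genes that control translation of TOP mRNAs, 6 rose and 6 fell (42.9% each, beside 24.1% and 26.4% of all genes tested). The median was -0.04. MTOR was at 213, 216 and 208 CPM in controls and 320, 331 and 322 CPM in shIRF1 samples, without overlap (log2 fold change 0.61 ± 0.04, adjusted p = 1.15e-09, edgeR). RPS6KB1, which encodes S6 kinase, rose by 0.39 ± 0.05, and LARP4, a poly(A)-binding relative of LARP1, fell by 0.63 on the log2 scale. LARP1 itself was at 1098, 1142 and 1123 CPM in controls and 1032, 1037 and 1030 CPM in shIRF1 samples. Its log2 fold change was -0.12 ± 0.04 (adjusted p = 0.0253, edgeR). By adjusted p, the fall of LARP1 was among the weaker of the 6. With scaling by library size only, by upper quartile or by TMM computed without the members, 4 genes of this list fell. The same number fell without control replicate 2 and without shIRF1 replicate 1 or 3. These are mRNA levels and say nothing of kinase activity.

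Of the GAIT genes, RPL13A was at 772, 805 and 825 CPM in controls and at 951, 877 and 840 CPM in shIRF1 samples. The groups did not overlap, and its rise was 0.15 ± 0.05 on the log2 scale (adjusted p = 0.0178, edgeR), close to the median of the ribosomal proteins. It was not called without control replicate 1 or 2 (adjusted p = 0.0785 and 0.0577, edgeR) nor without shIRF1 replicate 1 (0.121), where it was 0.10 on the log2 scale. EPRS, the glutamyl-prolyl-tRNA synthetase that anchors the complex, rose by 0.67 ± 0.05. SYNCRIP and GAPDH, the remaining proteins of the complex, each fell by 0.32 on the log2 scale, and of the kinases that act on RPL13A, DAPK1 fell by 0.31 while DAPK3 did not pass the test (0.13 ± 0.06).

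**Figure D5:**
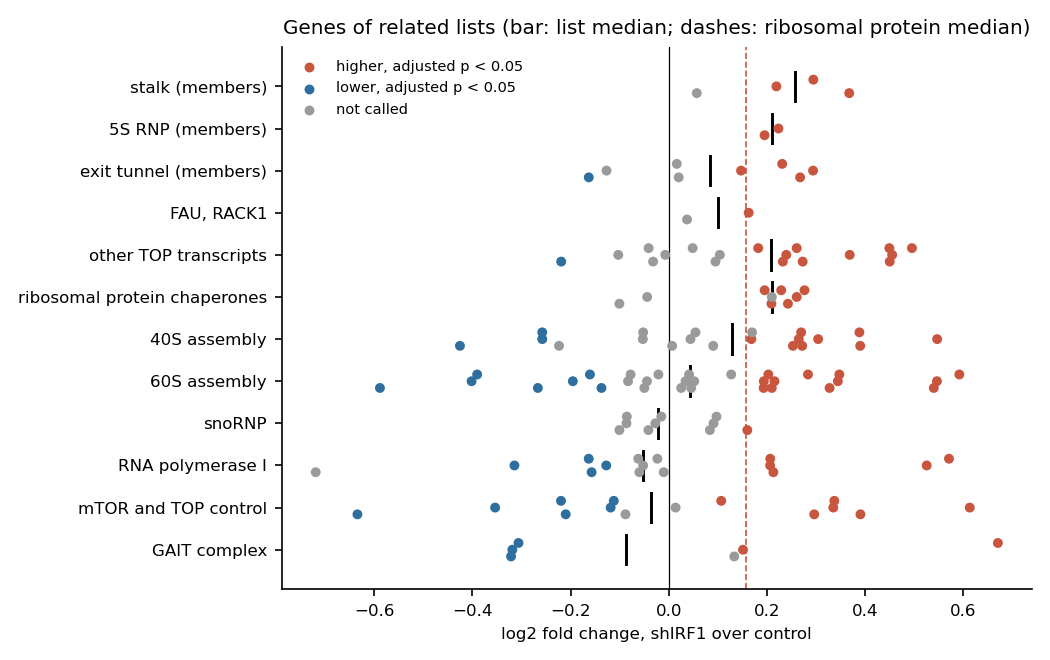
Log2 fold change (shIRF1 over control, horizontal axis) of the tested genes reported here in lists of ribosomal protein groups, other TOP transcripts, assembly factors, rRNA synthesis, TOP control and the GAIT complex, coloured by the edgeR call, with a bar at the median of the genes plotted and dashes at the ribosomal protein median of 0.16. The other TOP transcripts and the chaperones have medians of 0.21 and the RNA polymerase I and TOP control lists of -0.05 and -0.04, and each of these lists has genes on both sides of 0.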

How the data were processed

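Total RNA of BT-549 cultures was sequenced after TruSeq Stranded mRNA library preparation. The submitters' processing notes name CASAVA 1.8.2, STAR 2.7.9a, featureCounts, DESeq2 1.24.0 and the build GRCh38.p7. For 6 samples the authors deposited unnormalized read counts, 1 row per symbol. The annotation release, the strand setting and the treatment of reads with several matches are not given in the sources used here. Even values made up 72.1% to 75.2% of values from 2 to 11, so halved counts were run as an alternative.

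Counts were tested with edgeR 4.0.16 (quasi-likelihood, TMM, filterByExpr with a minimum count of 10, group as the single factor, R 4.3.3), with Benjamini-Hochberg adjustment over 18851 genes and SE as the size of the log2 fold change over the square root of F. Totals per library ranged from 55143808 to 160436234 counts. Intervals (95%) are the log2 fold change ± 1.96 SE and include the spread between replicates. This normal multiplier can make them narrower than the F test implies. Scripts were checked on simulated data. DESeq2 1.42.0, other scalings and filters, a replicate block and leaving out each replicate were alternatives, and GC and length corrections (GENCODE release 29) were added after seeing the data. The members and lists were chosen with earlier results of these data known. Named genes were the 10 largest called changes in each direction, members whose highest value exceeded the lowest by over 2 times within a group, the 5 most abundant, untested members, called members of the structural and paralogue lists, the GAIT genes, FAU and RACK1, and the 3 smallest adjusted p-values of each other list. Other genes were named to complete the account of a list, or as said in the text. Some genes that the rule names are not reported here, though counts and medians include them.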

Additional observations from a re-analysis of the deposited data

How the results depend on the processing

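Between 40 (without control replicate 1) and 53 (without control replicate 3) members were called higher when 1 replicate was left out, and 38 to 61 under the other settings (38 with a threshold of 0.01, 47 without paralogue forms and members that stood apart, 48 with DESeq2, 60 with upper quartile scaling and 61 with library size only). All 49 members called higher were called with every other scaling or filter tried in edgeR, and 39 were called under every setting in which they had an adjusted p. The members' median log2 fold change was between 0.13 and 0.21, the latter, 0.208, with library size only, which moved the median of all genes to 0.049. The number called lower was 2 with a filter of 1 CPM in 3 samples, which dropped RPL3L, 2 without paralogue forms and members that stood apart, and 2 to 5 when 1 replicate was left out, with 2 without control replicate 3. After correction for GC content and length, chosen after seeing the data, 54 rose and 6 fell. DESeq2 gave RPS9 no adjusted p. With shIRF1 replicate 2 left out, the log2 fold change of RPS9 was 0.888. That of RPS18 turned negative without shIRF1 replicate 2 (-0.26) and without control replicate 1 (-0.041), was at most 0.29 (without shIRF1 replicate 1), and the cause was not tested. The difference in the share of RPL7L1 was 0 to 2 decimals and turned positive without control replicate 2 (0.0529) or 3 (0.0473) and without shIRF1 replicate 1 (0.0580) or 2 (0.272 percentage points), with the lowest value, -0.340, without shIRF1 replicate 3. RPL35, RPL3L and the low-count members are limited by overlap or depth.

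With the replicate number as a block, 50 members rose and 4 fell, including all 49 and all 4 of the fit without it, and RPS18 was at -0.0086 (-0.025 with the GC and length correction as well). RPS9 was at 2.32. Same-numbered samples correlated in their deviations from the group means by 0.014, 0.025 and -0.0072 over all genes. Over the members these correlations were -0.62, 0.03 and 0.63 for replicates 1, 2 and 3. Over all genes 3 of 6 samples correlated best with their own number, so the numbers were not taken as a pairing.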
